A study of Mus musculus with 3 samples.

Results

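The genes described are the D and E cyclins, the kinases that D cyclins activate and the retinoblastoma family, also called pocket proteins: Ccnd1, Ccnd2, Ccnd3, Ccne1, Ccne2, Cdk4, Cdk6, Rb1, Rbl1 and Rbl2. They were chosen by name, with every array probe set annotated to one of them, and make up 10 of 18194 named genes and 30 of 45101 probe sets. RNA came from mouse LSK cells, blood precursors that lack lineage markers, carry Sca-1 and Kit, and include both stem cells and early progenitors. There was 1 Affymetrix array for each of 3 genotypes: wild type (WT), p53 -/- (p53 KO) and p53 -/- Mef -/- (DKO). Mef is the ETS transcription factor that Elf4 encodes. The sources used here do not give mouse strain, age or how many animals or sorts an array stands for. The design addresses the effect of losing p53 and that of losing Mef in addition. The level of p53 itself is not reported here, so each direction rests on the array labels.

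D cyclins are made in response to growth signals and activate Cdk4 and Cdk6, which phosphorylate the pocket proteins. Unphosphorylated pocket proteins hold E2F factors in check, and their phosphorylation releases genes for S phase, among them those of cyclin E, which drives Cdk2 and completes the step. In blood-forming stem cells this switch separates quiescence from division, and the D cyclins and Cdk6 in particular are known to govern entry into the cycle. An mRNA level shows neither kinase activity nor phosphorylation.

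With 1 array per genotype there is neither an error between animals nor a test, and a difference here is one between single arrays. Signals are linear intensities, scaled by the authors to a 2% trimmed mean of 500 on each array (500.003 as computed here). For differences, signals below the median of all signals (110.4) were set to that floor, and a difference is that of log2 signals. Of the 30 probe sets, 26 reached the floor on at least 1 array, and all 10 genes had at least 1 such measured probe set. A gene is read by its probe set with the highest mean signal unless another is named. For scale, the robust SD between measured probe sets of the same gene on the log2 scale was 0.33 between the p53 KO and WT arrays and 0.38 in each comparison that involves DKO, over 5511 genes. Probe sets of a gene read the same RNA, so that spread holds no variation between animals.

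The G1 genes did not move as a block. On the p53 KO array Ccnd3 and Ccne2 were at least 2-fold higher than on WT, and Rb1 was 1.80-fold higher, while Cdk4, Cdk6 and Ccnd2 were lower by less than 2-fold. On the DKO array Ccne1 was 3.70-fold lower than on WT. Between both knockout arrays, Ccnd2 was higher on DKO, and Ccnd3, Rb1, Ccne1 and Ccne2 were lower there, each by at least 2-fold.

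On p53 KO relative to WT, 2 of the 10 genes passed 2-fold upwards and 0 downwards, where 6.51% and 3.19% of the 12597 measured genes passed the same limits. On DKO relative to WT the counts were 0 higher and 1 lower, beside 5.22% and 3.1% of all measured genes. Between DKO and p53 KO they were 1 higher and 4 lower, beside 4.1% and 5.93%. The last count, 4 of 10, is the one farthest from its background. In some of the alternative settings given at the end it was 3. The 3 comparisons share arrays, so each array enters more than 1 of these counts. Median differences over the 10 genes were -0.03, -0.17 and -0.05 in that order, beside 0, 0.07 and 0.11 over all measured genes. Without any limit on size, the 10 genes split 5 to 5 between higher and lower on p53 KO relative to WT, near the 46.2% and 47% of all measured genes. They split 4 to 6 on DKO relative to WT, beside 55.9% and 41.1%, and 5 to 5 on DKO relative to p53 KO, beside 58.8% and 39.7%.

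**Figure D1:**
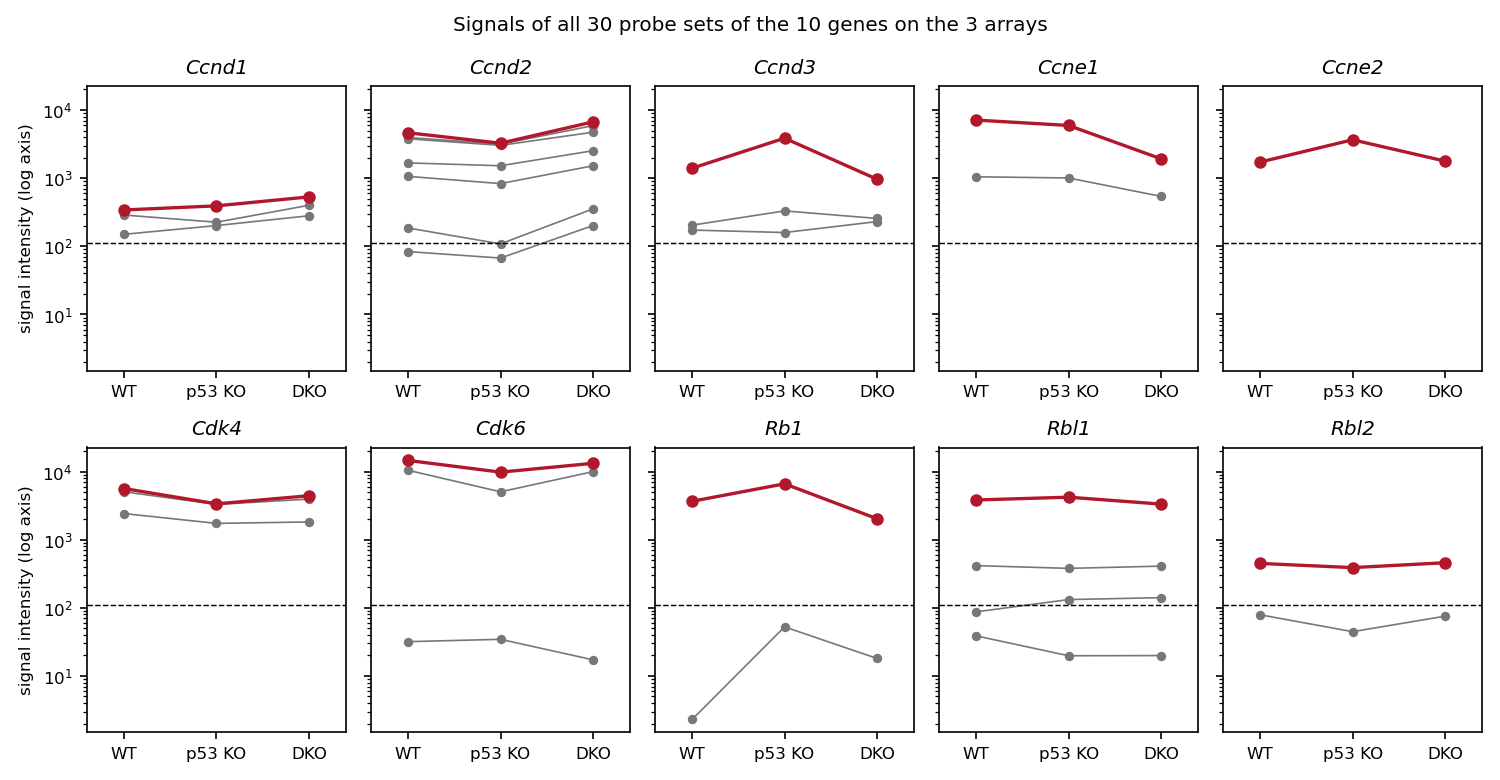
Signal intensity (log axis) of all 30 probe sets of the 10 genes on the arrays of WT, p53 KO and DKO cells, with 1 line per probe set, the probe set used for the gene in red and the floor of 110.4 dashed. Ccnd3, Ccne2 and Rb1 peak on the p53 KO array, Ccnd2 is lowest there on every probe set, and Ccne1 is lowest on DKO.

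Among the D cyclins, Ccnd2 had the most probe sets and the most uniform pattern. Cyclin D2 is the D cyclin induced by cytokines in many blood cells. Its brightest probe set had signals of 4634 on WT, 3254 on p53 KO and 6694 on DKO. The next, 1434745_at, gave 3951, 3154 and 5894, and 1416122_at gave 3782, 3026 and 4721. Signals of 1448229_s_at were 1674, 1521 and 2527, and those of 1430127_a_at were 1062, 832 and 1519. The dim probe sets 1416123_at (186, 108 and 354) and 1416124_at (83.6, 67.2 and 201) lay near the floor. All 7 probe sets were thus lowest on p53 KO and highest on DKO.

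The log2 difference of Ccnd2 between p53 KO and WT was -0.51 by its brightest probe set and -0.34 ± 0.24 (SD over 7 probe sets). That mean includes a 0 set by the floor for 1416124_at, under it on both arrays, and a bound of -0.75 for 1416123_at. Between DKO and WT the difference was 0.53, or 0.62 ± 0.21 over the same probe sets, with a bound for 1416124_at. DKO against p53 KO gave 1.04 (2.06-fold), the only 2-fold excess on DKO among the 10 genes, with probe sets from 0.64 to 1.68, where the last is at least 1.68 because 1 array was under the floor. The brightest probe set is one that may also bind other transcripts (suffix _x_at). With the plain _at probe set the difference was 0.90, and the mean over probe sets was 0.96, both short of 2-fold. Of 127 genes with 6 or more measured probe sets, 0.787% (1 gene, Ccnd2 itself) kept that order of the 3 arrays on every one, and 3.15% kept any single order. The count was made after the order had been seen, so Ccnd2 was bound to be in it. Raw signals were ranked for it, including those under the floor. Summed signals of 4 LSK markers were also lowest on p53 KO and highest on DKO, at 10088 on WT, 7005 on p53 KO and 16813 on DKO, but of the single markers only Flt3 (2387, 1492 and 4728) had that order. Kit ran at 4996, 2522 and 4873, Cd34 at 2230, 2442 and 6633 and Slamf1 at 475, 549 and 579. All 4 were over the floor on every array, while Ly6a, which encodes Sca-1, was not used for want of a named probe set. The part of cell make-up in the Ccnd2 values was not tested.

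For Ccnd3 the p53 KO array was higher than both others, not lower, on 2 of its 3 probe sets, and by at least 2-fold on 1 of them. Cyclin D3 is the D cyclin of lymphocyte and red cell precursor growth. Its brightest probe set, 1415907_at, had signals of 1400 on WT, 3858 on p53 KO and 966 on DKO. The log2 difference was 1.46 for p53 KO against WT (2.76-fold higher), and 2.45% of measured genes lay above it. For DKO against p53 KO it was -2.00, and between DKO and WT -0.54. The p53 KO array was therefore the high one.

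The dimmer Ccnd3 probe sets differed from each other. Signals of 1444323_at were 204, 331 and 256, also highest on p53 KO (log2 difference from WT 0.70), whereas those of 1438805_at were 173, 159 and 230, lowest there. The mean over the 3 probe sets was 0.68 ± 0.79 (SD over 3 probe sets) from WT to p53 KO and -0.61 ± 1.28 from p53 KO to DKO, neither of which reached 2-fold. Between DKO and WT that mean was 0.07 ± 0.53, opposite in sign to the brightest probe set.

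Ccnd1, the D cyclin best known from solid tissues, had signals of 342 on WT, 392 on p53 KO and 531 on DKO. Its other probe sets gave 288, 226 and 400, and 150, 202 and 281. All 3 were highest on DKO, where the log2 difference from WT was 0.64 (range 0.47 to 0.90), while for p53 KO against WT they ran from -0.35 to 0.43. No Ccnd1 difference reached 2-fold.

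The E cyclins, partners of Cdk2 at the start of S phase, parted from each other. Ccne1 signals were 7112 on WT, 5934 on p53 KO and 1923 on DKO. Its other probe set, 1416492_at, gave 1047, 1006 and 540. Both were lowest on DKO, and WT and p53 KO lay close together. The log2 difference for DKO against WT was -1.89 (3.70-fold lower), and 0.516% of measured genes lay below it. For DKO against p53 KO it was -1.63. The plain probe set gave -0.95 and -0.90, in the same direction but short of 2-fold. The brighter Ccne1 probe set also carries the suffix _x_at.

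Red cell markers were low on the same array. The 8 named genes of the erythroid list had summed signals of 55876 on WT, 69647 on p53 KO and 11587 on DKO, with 7 of 8 at or over the floor on each array. Hba-a1, the only globin gene of the list with a named probe set, was under the floor throughout at 38.1, 69.8 and 76.9. Of the 7 measured, 6 were at least 2-fold lower on DKO than on WT and 7 were lower than on p53 KO by that measure, with medians of -1.68 and -2.45. Of all measured genes, 3.1% and 5.93% were at least 2-fold lower in these comparisons. On p53 KO relative to WT, 3 of the 7 were higher and 4 lower, with a median of -0.23. The 2 that were at least 2-fold higher there were Alas2 (1787, 11459 and 1091) and Epb42 (1199, 6526 and 408). Klf1, a zinc finger activator of globin and other red cell genes, was among the 4 lower ones and ran at 12847, 9033 and 1972. The part of red cell precursors in the Ccne1 values was not tested, and in such bulk samples fewer cells of a type and less RNA per cell cannot be told apart.

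Ccne2, read by 1 probe set, had signals of 1722 on WT, 3657 on p53 KO and 1779 on DKO. WT and DKO were nearly equal, with a log2 difference of 0.05, and p53 KO was high. The difference was 1.09 for p53 KO against WT (2.12-fold higher) and -1.04 for DKO against p53 KO (2.06-fold lower). Both lie just past 2-fold, and quantile normalization moved the latter to -0.98. No further probe set bears on this gene.

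The kinases were lowest on p53 KO. Cdk4 signals were 5624 on WT, 3355 on p53 KO and 4410 on DKO. Its other probe sets gave 5038, 3289 and 3935, and 2414, 1733 and 1818. All 3 had the same order, with WT highest. The log2 difference for p53 KO against WT was -0.75, or -0.61 ± 0.13 (SD over 3 probe sets), and 7.54% of measured genes lay below -0.75. For DKO against WT it was -0.35, or -0.37 ± 0.03, and for DKO against p53 KO 0.39. The brightest Cdk4 probe set also carries the suffix _x_at. The plain one, 1422440_at, gave -0.48, -0.41 and 0.07 for the same comparisons. The probe sets of Cdk4 were the closest to one another among the genes with 3 or more in both comparisons with WT.

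Cdk6 is the related kinase that is prominent in blood progenitors. Its brightest probe set had signals of 14527 on WT, 9790 on p53 KO and 13181 on DKO. The other measured probe set, 1435338_at, gave 10422, 5033 and 9943. WT and DKO were thus close, and p53 KO was lower on both. Log2 differences for p53 KO against WT were -0.57 and -1.05, so only the dimmer of the pair reached 2-fold. From WT to DKO they were -0.14 and -0.07, less than the spread between probe sets. A further probe set, 1460291_at, was under the floor on all arrays at 31.9, 34.5 and 17.3.

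The promoter of Cdk4 is shown because its probe sets moved together and because it holds an unusual run of a known motif. RefSeq (build GRCm38.p6) gave promoters for 6 of the 10 genes, with no entry used for Ccnd1, Ccnd2, Ccne2 and Rb1. In each, the 250 bases before the gene start were searched on both strands. The E-box CACGTG, the word bound by Myc with its partner Max, was added after the sequences had been seen. It occurs 4 times in the Cdk4 window, between 172 and 11 bases before the start. At least 1 match was found in 6.02% of 32851 promoters and 4 or more in 0.0213% (7 promoters). Cdk6 holds 1 match and the others none. In the line below the matches are in capitals, the window is chr10:127063285-127063534 on the + strand, and a match describes letters only.
Cdk4: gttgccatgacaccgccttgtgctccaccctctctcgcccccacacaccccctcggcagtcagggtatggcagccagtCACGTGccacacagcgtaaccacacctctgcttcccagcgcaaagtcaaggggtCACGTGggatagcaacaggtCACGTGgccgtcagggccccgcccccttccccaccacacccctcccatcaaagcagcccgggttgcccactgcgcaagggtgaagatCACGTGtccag

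Among the pocket proteins, Rb1 differed between the arrays and its relatives were close to level. Rb1, the retinoblastoma tumour suppressor that restrains E2F, had signals of 3657 on WT, 6600 on p53 KO and 2030 on DKO. The p53 KO array was high and the DKO array low, with WT between. Log2 differences were 0.85 for p53 KO against WT (1.80-fold), -0.85 on DKO relative to WT and -1.70 on DKO relative to p53 KO (3.25-fold lower). For the last, 2.06% of measured genes lay below. Rb1 rests on 1 measured probe set, since 1444400_at was under the floor on all arrays at 2.30, 52.5 and 18.1.

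Rbl1, a relative that binds mainly repressive E2F factors, had signals of 3822 on WT, 4200 on p53 KO and 3325 on DKO. Its other measured probe sets gave 416, 379 and 409, and 87.3, 132 and 141. The array order differed between the 3, and log2 differences ran from -0.13 to 0.26 on p53 KO relative to WT, from -0.20 to 0.35 on DKO relative to WT and from -0.34 to 0.11 on DKO relative to p53 KO. A further probe set was under the floor at 38.7, 19.8 and 19.9.

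Rbl2, the relative found in quiescent cells as part of the DREAM repressor complex, had signals of 448 on WT, 389 on p53 KO and 458 on DKO. Differences were -0.20, 0.03 and 0.24, each under the SD between probe sets given above, and the DKO against WT value was -0.10 after quantile normalization. Its other probe set was under the floor at 79.0, 44.6 and 75.3.

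Promoters of Rbl1 and Ccne1, both textbook E2F targets, are set side by side because Rbl1 was near level while Ccne1 was the lowest of the 10 genes on DKO against WT. The E2F words searched were TTCCCGC or TTCGCGC or TTGCCGC or TTGGCGC, found in 7.89% of promoters. Rbl1 (chr2:157204535-157204784, - strand) holds 1 match, TTCGCGC, beginning 17 bases before the start and shown in capitals. The Ccne1 window (chr7:38107491-38107740, - strand) holds 0 exact matches to these words, which concerns these letters only. Near its end it reads GTCCCGC, which differs from TTCCCGC in 1 base, so the count does not show that an E2F site is absent. A link between these words and the signals was not tested. It is GC-rich at 76%, with 34 CpG pairs, beside medians of 52.4% and 6 over all promoters. The CHR word TTTGAA of DREAM target genes, present in 16% of promoters, was found among these genes in that of Rbl2, once, and in none of the other promoters searched. None of the windows searched held both an E2F and a CHR word.
Rbl1: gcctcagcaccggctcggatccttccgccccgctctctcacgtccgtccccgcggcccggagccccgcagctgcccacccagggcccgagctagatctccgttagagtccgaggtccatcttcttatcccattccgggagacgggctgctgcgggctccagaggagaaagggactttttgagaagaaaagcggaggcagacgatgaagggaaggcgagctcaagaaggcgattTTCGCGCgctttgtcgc
Ccne1: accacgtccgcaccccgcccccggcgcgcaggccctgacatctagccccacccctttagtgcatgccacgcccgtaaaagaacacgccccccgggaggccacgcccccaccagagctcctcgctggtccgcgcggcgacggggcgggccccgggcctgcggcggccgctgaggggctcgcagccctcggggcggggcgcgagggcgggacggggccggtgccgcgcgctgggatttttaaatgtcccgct

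**Figure D2:**
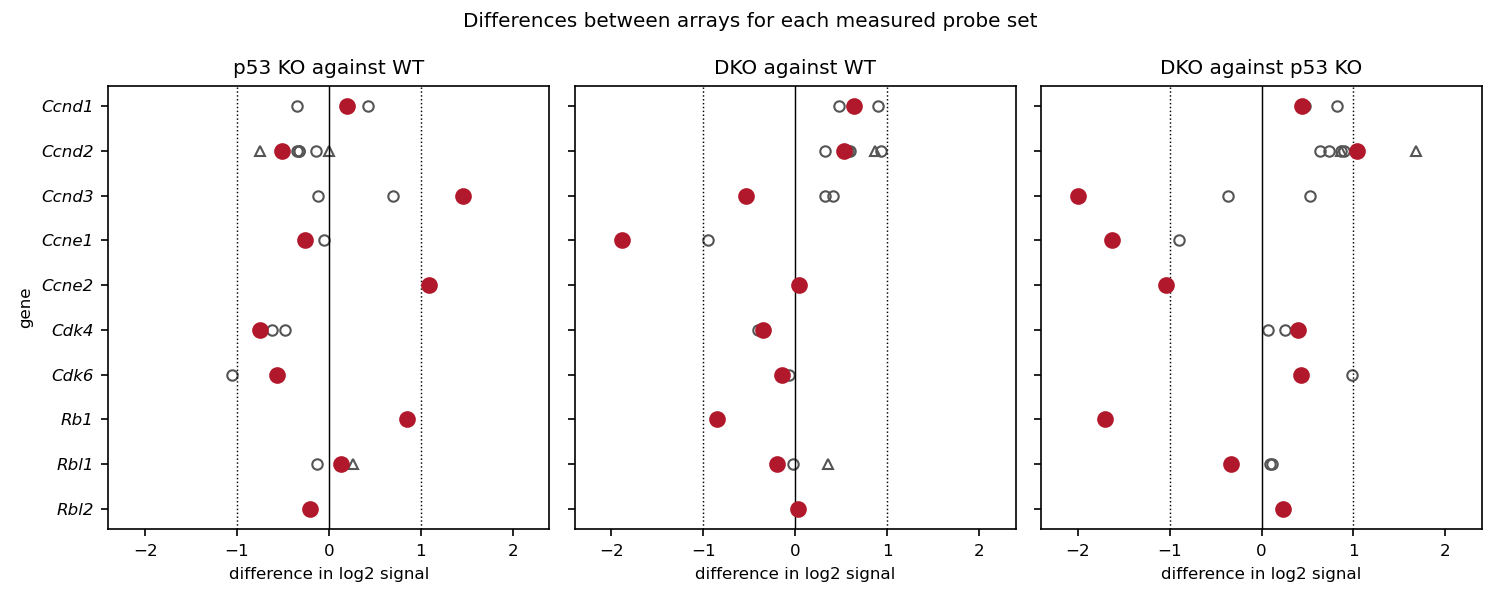
Difference in log2 signal for each measured probe set of the 10 genes in the 3 comparisons, where filled red points mark the probe set used for a gene, open points the others, triangles values with an array under the floor and dotted lines 2-fold. Points of Cdk4 lie together and those of Ccnd2 share a side (0.64 to 1.68 for DKO against p53 KO), while those of Ccnd3 spread from -2.00 to 0.53 for DKO against p53 KO.

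Over single probe sets, 2 of 26 passed 2-fold upwards and 1 downwards on p53 KO relative to WT, where 5.36% and 2.86% of all measured probe sets were. On DKO the counts were 0 and 1 relative to WT, beside 5.22% and 2.6%, and 2 and 4 relative to p53 KO, beside 4.38% and 4.81%. Probe sets of a gene share its transcripts and are not separate observations.

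Other genes of the pathway are given by lists. Of all measured genes, 6.51% were at least 2-fold higher and 3.19% lower on p53 KO than on WT. On DKO relative to WT these shares were 5.22% and 3.1%, and relative to p53 KO 4.1% and 5.93%. Of 9 measured genes around cyclin E and A kinases and kinase activation, 1 was at least 2-fold higher and 1 lower on p53 KO than on WT. These were Cdc25b, a phosphatase that activates cyclin-dependent kinases, at 617, 2402 and 770 on WT, p53 KO and DKO, and Cdk7, the kinase that activates others, at 1963, 854 and 849. Ccnh, the cyclin that partners Cdk7, ran at 12511, 7461 and 10844. Cdk2, the partner of cyclin E, was level at 1107, 1221 and 1163. Of these 9 genes, Cdk7 was also at least 2-fold lower on DKO than on WT.

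The inhibitors of these kinases were higher on p53 KO than on WT for all 5 measured of 7, beside 46.2% of all measured genes. Of the 5, 3 were at least 2-fold higher, and their median was 1.15. On DKO the median relative to WT was 0.29 with 1 at least 2-fold higher, and relative to p53 KO it was -0.93 with 2 at least 2-fold lower. Cdkn2d and Cdkn2c, which block Cdk4 and Cdk6, had signals of 275, 1551 and 336 and of 1950, 4643 and 1751, highest on p53 KO. Cdkn1b, which acts mainly on Cdk2, was also highest there at 781, 1729 and 1084. Cdkn1a, a p53 target, was instead highest on DKO at 291, 569 and 648. Cdkn2a and Cdkn2b were under the floor on every array.

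E2F and DP factors, which the pocket proteins bind, had medians of 0.09, -0.23 and -0.25 for p53 KO and then DKO relative to WT and for DKO relative to p53 KO, the order kept in what follows. Of 10 measured, 2 were at least 2-fold higher on p53 KO than on WT, 1 was lower on DKO than on WT, and 3 were lower on DKO than on p53 KO. E2f2, an activating member, had the largest differences of the list, with signals of 1270, 5809 and 624 and log2 differences of 2.19, -1.02 and -3.22. E2f8, a repressive member, ran at 9108, 12657 and 5362. E2f7, another repressive member, ran at 551, 1774 and 907, and the DP gene Tfdp2 at 3017, 5282 and 2415. E2f1, E2f3 and E2f4 differed by at most 0.33 in any comparison.

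MuvB and other partners of the pocket proteins had medians near 0, at 0.04, -0.07 and -0.01 over 11 measured genes. Only Lin54, the DNA-binding MuvB subunit, at 1277, 1850 and 906, reached 2-fold, being lower on DKO than on p53 KO. Mybl2 (0.47, -0.19 and -0.66) and Hdac2 (-0.60, -0.11 and 0.48) differed by less and, between p53 KO and each other array, in opposite directions. Genes for the turnover of G1 cyclins had medians of -0.30, 0.04 and 0.25 over 10 measured, none by 2-fold. Fbxw7, a ubiquitin ligase subunit that marks cyclin E for destruction, ran at 1121, 943 and 1034, and Skp2, another such subunit, at 1474, 1491 and 1701.

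Downstream, 23 measured E2F targets of S phase entry had medians of 0.10, -0.20 and -0.29. Of these, 1 was at least 2-fold higher on p53 KO than on WT (Rrm2, a ribonucleotide reductase subunit, at 13534, 28502 and 10852), 1 was lower on DKO than on WT (Orc1, of the origin recognition complex, at 860, 863 and 408), and 3 were lower on DKO than on p53 KO (Rrm2, Orc1 and Tk1). The replication helicase genes Mcm2 to Mcm7 differed by at most 0.29 in any comparison. Genes of G2 and mitosis, later in the cycle, had medians of 0.51, -0.48 and -0.95 over 19 measured. All 19 were lower on DKO than on p53 KO by sign, beside 39.7% of all measured genes. At least 2-fold lower were 8 of them, beside 5.93%. Among the 7 pathway lists and the 10 G1 genes, the list of kinase inhibitors thus had the largest median for p53 KO against WT and that of G2 and mitosis for both other comparisons.

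**Figure D3:**
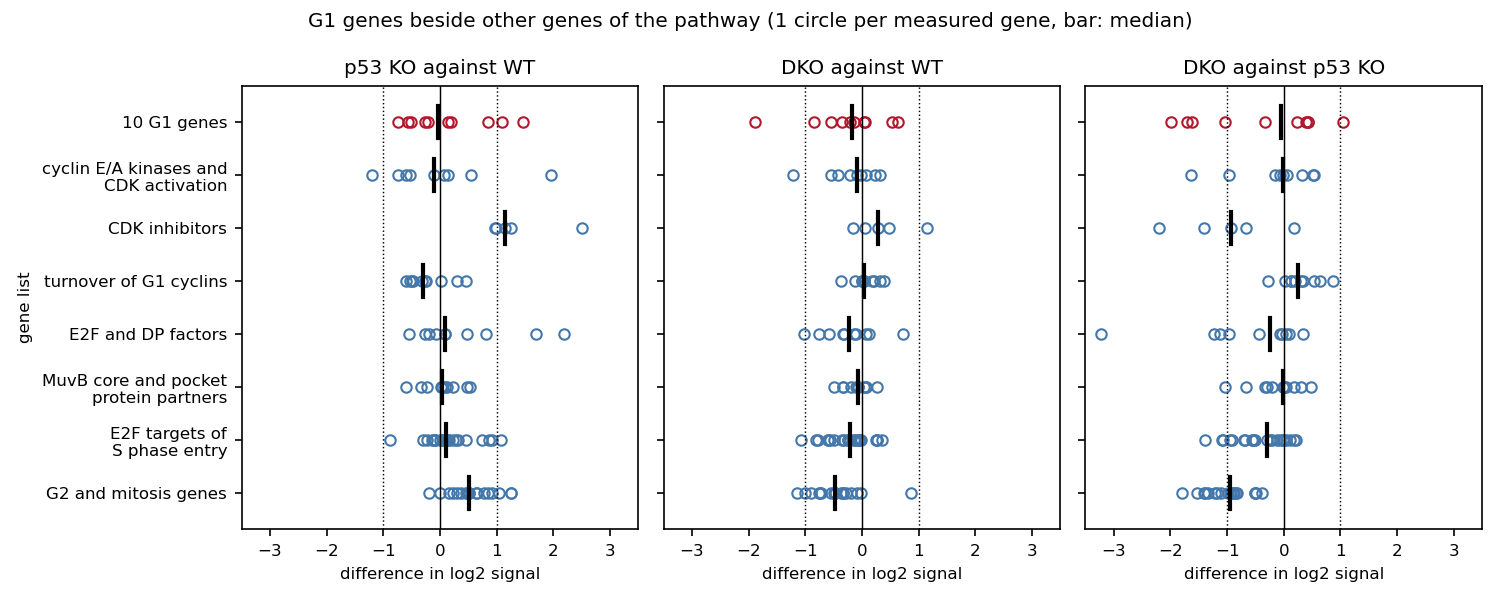
Difference in log2 signal for the 10 G1 genes (red) and 7 lists of other pathway genes (blue), with 1 circle per measured gene, black bars at medians and dotted lines at 2-fold. The G1 genes spread to both sides of 0 in each comparison, while all 19 genes of G2 and mitosis lie below 0 for DKO against p53 KO.

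Markers of mature cells differed between the arrays too, and most were highest on p53 KO, where Ccnd3, Ccne2 and Rb1 were high. Summed signals on WT, p53 KO and DKO were 9877, 33509 and 16256 for 8 monocyte and macrophage genes, 44760, 102077 and 55914 for 8 granulocyte genes, and 4475, 13372 and 7983 for 8 megakaryocyte genes. The 7 named B cell genes summed to 1665, 5746 and 2440, and 6 mast cell, basophil and eosinophil genes to 2958, 7657 and 3451. Those of 6 T cell genes were 465, 837 and 504, with Cd3e, Cd3g and Cd4 under the floor on every array. The 7 NK cell genes summed to 1880, 3433 and 3529, with Ncr1 and Prf1 under the floor, and 6 dendritic cell genes to 3612, 3807 and 6040, with Siglech under the floor. The number at or over the floor on the 3 arrays was 7, 8 and 8 for monocyte genes, 8 on each for granulocytes, 7, 8 and 8 for megakaryocytes, 7 on each for B cells, 1, 3 and 1 for T cells, 4 on each for NK cells, 5 on each for mast cells and 4, 4 and 5 for dendritic cells. Sums follow the brightest genes. Higher on DKO than on p53 KO were 3 of 8 granulocyte genes (Mpo, Elane and Ctsg) and 3 of 8 megakaryocyte genes (Itga2b, Gp1bb and Selp). Mpo was nearly equal on these arrays, at 27108 on p53 KO and 27120 on DKO. Of the 8 monocyte and macrophage genes, 1 was higher on DKO than on p53 KO (Fcgr1), and all 7 B cell genes were lower. By sign, 58.8% of all measured genes were higher in that comparison. Of the mast cell, basophil and eosinophil list, Epx (413, 1590 and 101), Prg2 (1223, 4383 and 272) and Mcpt8 peaked on p53 KO. Cpa3 (613, 497 and 2020), Ms4a2 and Fcer1a were highest on DKO. Flt3 (2387, 1492 and 4728) is in both the LSK and the dendritic list and was the brightest dendritic gene on every array. Of the other measured dendritic genes, Itgax and Cd74 peaked on p53 KO, Zbtb46 on WT and Xcr1 on DKO. Nkg7 (1176, 1667 and 2724) was the brightest NK cell gene on every array. Gzma, Ccl5 and Klrd1 peaked on p53 KO instead, while Il2rb, like Nkg7, was highest on DKO. On DKO relative to WT the granulocyte genes split 4 higher and 4 lower, with 2 at least 2-fold higher (Elane and Ctsg) and 2 lower (Ltf and Camp). The part of mature cells in the G1 gene values was not tested.

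**Figure D4:**
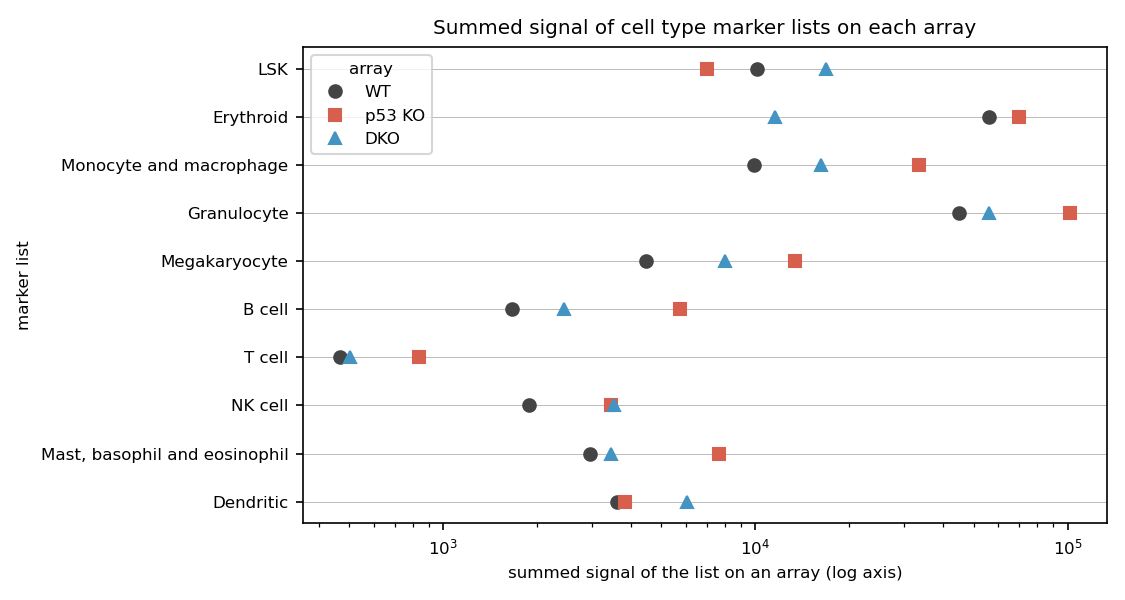
Summed signal (log axis) of 10 cell type marker lists on the WT (circles), p53 KO (squares) and DKO (triangles) arrays. The erythroid list is lowest on DKO at 11587, the LSK list is highest there at 16813, and the monocyte, granulocyte, megakaryocyte and B cell lists are highest on p53 KO by sum, though not for every gene.

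For the 5 genes at least 2-fold different in any comparison, the genes of most similar pattern were found by the distance between their log2 differences from WT on p53 KO and DKO, over 3 arrays and 7695 candidate genes. Closest to Ccne1 were Tspo2 (distance 0.11, signals 1178, 1016 and 298), Gata1 (0.13) and Samd14 (0.18). Gata1, a transcription factor of red cell and megakaryocyte development, ran at 4923, 3855 and 1422. Closest to Rb1 were Slc16a1 (0.04), the histone chaperone gene Asf1b (0.07) and Isca1 (0.08). Fcna, Ube2l6 and Rap1gap2 lay nearest to Ccnd3, at 0.05, 0.07 and 0.09. Ccne2 had Sat1, Adcy3 and Samd9l at 0.02, 0.02 and 0.04, and Ccnd2 had Zfp950, Cul7 and Mettl14 at 0.01, 0.01 and 0.02. With 3 arrays, many genes share any pattern of moderate size, so a short distance describes these arrays only.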

How the data were processed

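The deposited table holds signal intensities on a linear scale for 45101 probe sets on 3 arrays, 1 per genotype. Per the submitters' processing notes, the authors made them with GCOS and MAS5, versions not stated. Their 2% trimmed mean is the same on each array. Median signals were 98.0 on WT, 105 on p53 KO and 129 on DKO. Arrays give no counting depth, and their number limits the precision.

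Probe sets were named from the platform annotation, updated through Entrez ID with the RefSeq gene table (34754 of 34958 with 1 symbol). Those with several symbols (932) or none (9211) were left out of gene values. Signals were floored at 110.4 and log2 taken. A gene is read by its probe set of highest mean signal and counts as measured if any array reached the floor. Calls are at least 2-fold, with no test. The calculation was tested on simulated data (Python 3.11.15, numpy 2.4.6, pandas 2.3.3). Named genes are all 10 members, up to 4 of the largest differences in each pathway list, and the 3 nearest patterns of each member called. Cdk2, E2f1, E2f3, E2f4, Fbxw7, Skp2 and the Mcm genes were named outside this rule for their roles, after their values were seen, as were Cdkn2a and Cdkn2b for lying under the floor. Members, lists and alternatives were chosen with earlier results of these data known.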

Additional observations from a re-analysis of the deposited data

How the results depend on the processing

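Each count of the 10 genes was recomputed under 9 alternatives, which gave 54 values, 45 of them within 1.5 times the reported count. For p53 KO against WT, genes at least 2-fold higher numbered 1 with the mean over measured probe sets (Ccnd3 lost), beside 5.27% of all measured genes. At a 3-fold threshold they numbered 0, beside 1.83%. Genes lower numbered 1 at 1.5-fold (Cdk4), beside 12.5%. For DKO against WT, genes higher numbered 1 at 1.5-fold (Ccnd1), beside 17.1%. Genes lower numbered 0 with plain _at probe sets (Ccne1 lost), beside 2.94%, and 2 at 1.5-fold (Ccne1 and Rb1), beside 9.52%. For DKO against p53 KO, genes higher numbered 0 with the mean over probe sets, with plain _at probe sets and at 3-fold (Ccnd2 lost). The shares of all measured genes there were 3.03%, 4.06% and 0.429%. Genes lower numbered 3 with quantile normalization and at 3-fold (Ccne2 lost in both), beside 6.56% and 2.49%. They also numbered 3 with the mean over probe sets (Ccnd3 lost) and with plain _at probe sets (Ccne1 lost), beside 4.79% and 5.85%. Of 207 recomputed differences of single genes, 200 moved by less than the spread between probe sets, 7 by more, and no called difference changed sign. Part of this agreement was fixed in advance, for the counts too. Trimmed mean rescaling could change nothing, because the arrays already share that mean. The probe set used for each gene lay over 110.4 on every array, so a floor at the 25th percentile could not move these values either. The mean over probe sets could not change Ccne2, Rb1 or Rbl2, with 1 measured probe set each. Quantile normalization left the median difference of all measured genes at 0 for DKO against WT, from 0.07, and higher genes were 49.4% of all 2-fold calls there, from 62.8%. A floor at the 25th or 75th percentile moved that share to 71.1% or 46.4%, and for DKO against p53 KO from 40.9% to 56.4% or 25.5%. The share of all genes at least 2-fold higher in the latter comparison went from 4.1% to 9.41% or 2.02% with these floors. No paired analysis was possible because each genotype has 1 array. Where 1 of the 2 arrays compared is under the floor, as for 1416124_at of Ccnd2 on DKO against WT, the size of the difference is only a lower bound. Where both are, as for that probe set on p53 KO against WT, the difference is set to 0 and is not a measurement.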
